A study of Capra hircus with 10 samples.

Results

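The 9 enzymes described here carry the cholesterol pathway from squalene onward: FDFT1, SQLE, LSS, TM7SF2, MSMO1, NSDHL, HSD17B7, EBP and SC5D. They were chosen by name for their place in the pathway, with earlier results of these data known, and they are 9 of the 20587 protein-coding gene symbols in the deposited expression table. Together they are represented by 23 of its 43766 transcripts labelled protein-coding, and all 9 genes and all 23 transcripts passed the filter on low values. XR_001297362.2 of HSD17B7 has this label although its prefix is XR, where the other transcripts have XM. The ovaries came from Anhui white goats, a domestic breed, and were collected at a slaughterhouse. The labels place 5 ovaries in the luteal phase, when the corpus luteum is present, and 5 in the follicular phase, when follicles grow towards ovulation. The labels give no treatment, age or animal identity, and every ovary is a whole organ sequenced as 1 strand-specific, ribosomal RNA-depleted library. Nothing states that the ovaries came from separate goats, so p-values measure the spread between these ovaries.

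Cholesterol is built from acetyl units through mevalonate and farnesyl diphosphate to squalene, which is then oxidized, closed into a ring system and trimmed to cholesterol by enzymes of the endoplasmic reticulum. The corpus luteum is a steroid-secreting gland that turns cholesterol into progesterone, and it can take cholesterol from circulating lipoproteins or make it by this pathway. When membrane sterols are low, SREBF2 (the sterol-regulated transcription factor SREBP-2) raises transcription of most genes of the pathway.

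Values are FPKM, which count the fragments of a transcript relative to its length and to the size of the library, summed over the transcripts of a gene. FPKM can be compared between genes because they are given per length. The phases were compared on log2(FPKM + 0.1), luteal minus follicular, with limma and Benjamini-Hochberg adjustment over all 15359 genes tested. A gene counted as higher or lower when its adjusted p was under 0.05. Depth per ovary is unknown because only FPKM were used. FPKM of all transcripts summed to 452508 to 503276 per luteal phase ovary, and the follicular phase sums were 492324 to 540124. The median log2 fold change of all genes tested was -0.14, and it was -0.05 after each ovary was shifted to a common median.

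All 9 enzymes were higher in the luteal phase, with log2 fold changes from 1.93 (FDFT1) to 4.42 (TM7SF2) and a median of 2.38. Of all genes tested, 15.9% were called higher in the luteal phase and 43.7% in either direction. For each of the 9 enzymes the lowest luteal phase ovary lay above the highest follicular phase ovary, a separation that 11.2% of all genes showed. Luteal phase ovaries had a summed FPKM of the 9 enzymes of 1474 ± 276, against 188 ± 25.2 in follicular phase ovaries (SD, n = 5 each). These sums were 0.326% ± 0.0616 and 0.0394% ± 0.00445 of all mRNA FPKM. In RNA from whole ovaries, fewer cells of a type and less RNA per cell cannot be told apart.

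**Figure D1:**
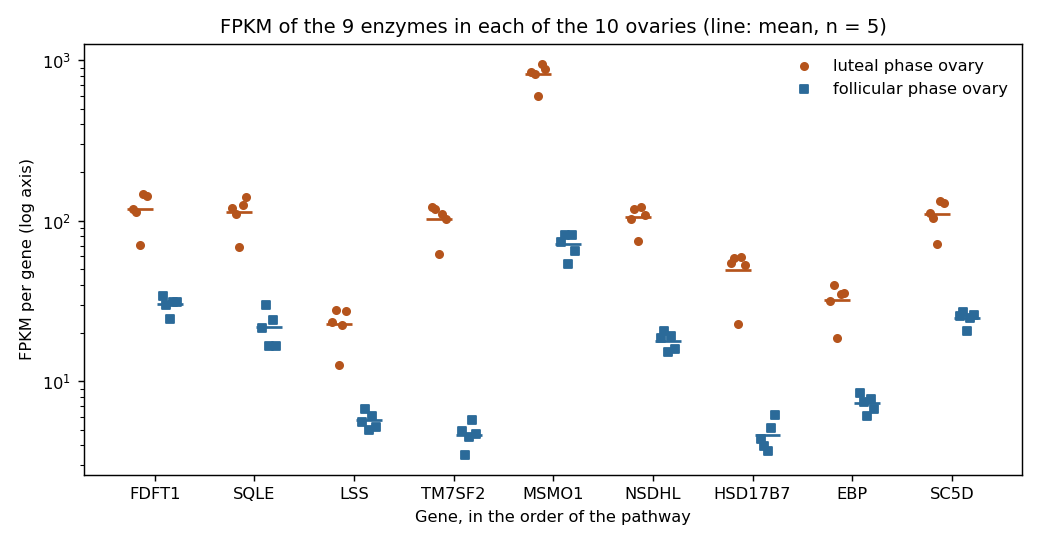
FPKM of the 9 enzymes (log axis) in each of the 5 luteal phase ovaries (circles) and 5 follicular phase ovaries (squares), in the order of the pathway, with a line at the mean of each phase. In every enzyme all luteal phase ovaries lie above all follicular phase ovaries, and MSMO1 is the highest enzyme in both phases.

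The first group of enzymes makes squalene and closes it into lanosterol. FDFT1, squalene synthase, joins a pair of farnesyl diphosphate molecules into squalene. Its FPKM in luteal phase replicates 1 to 5 was 119, 114, 70.3, 147 and 143, and in follicular phase replicates 1 to 5 it was 34.2, 30.1, 24.5, 31.2 and 31.0. The follicular phase ovaries lay close together, and the lowest luteal phase ovary was 2.06 times the highest follicular phase ovary. The log2 fold change of FDFT1 was 1.93 (standard error 0.18, limma adjusted p = 1.55e-05). SQLE, squalene epoxidase, adds the oxygen at which the ring closure starts and is known as a rate-limiting step. In the luteal phase it was at 121, 111, 68.8, 126 and 141 FPKM. In the follicular phase it was at 21.4, 29.9, 16.5, 24.1 and 16.5 FPKM. SQLE had the widest relative spread of the 9 enzymes in the follicular phase, with a standard deviation of 26.0% of its mean. Its log2 fold change was 2.38 (standard error 0.21, limma adjusted p = 9.99e-06). LSS, lanosterol synthase, folds the epoxide into lanosterol. It was at 23.6, 27.9, 12.7, 22.4 and 27.6 FPKM in luteal phase ovaries and at 5.55, 6.71, 4.97, 6.10 and 5.21 FPKM in the follicular phase. LSS had the smallest gap between the phases, as its lowest luteal phase ovary was 1.89 times its highest follicular phase ovary. Its log2 fold change was 1.94 (standard error 0.19, limma adjusted p = 2.59e-05).

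The second group reduces the lanosterol skeleton and removes its extra methyl groups. TM7SF2 is a sterol reductase that acts directly after the CYP51A1 step (CYP51A1 was not analysed here). Its FPKM was 122, 119, 61.7, 111 and 102 in luteal phase ovaries and 4.91, 3.47, 4.53, 5.71 and 4.72 in follicular phase ovaries. TM7SF2 changed most of the 9 enzymes: its mean was 22.1 times higher in the luteal phase, and even its lowest luteal phase ovary was 10.8 times its highest follicular phase ovary. The log2 fold change was 4.42 (standard error 0.19, limma adjusted p = 3.74e-08), at rank 31 from the highest of the 15359 genes tested. MSMO1, the methylsterol monooxygenase that starts the removal of the remaining methyl pair, was at 844, 816, 599, 953 and 884 FPKM in the luteal phase. In the follicular phase it was at 74.3, 82.0, 53.6, 82.0 and 65.1 FPKM. MSMO1 had the smallest relative spread of the 9 enzymes in the luteal phase, 16.3% of its mean. Its log2 fold change was 3.52 (standard error 0.15, limma adjusted p = 3.64e-08). NSDHL, the dehydrogenase that releases the oxidized methyl group as carbon dioxide, was at 103, 118, 74.5, 122 and 109 FPKM in the luteal phase. It was at 18.5, 20.6, 15.2, 19.2 and 15.8 FPKM in the follicular phase. The phases of NSDHL lay 3.61-fold apart at their nearest ovaries, and its log2 fold change was 2.54 (standard error 0.14, limma adjusted p = 2.15e-07).

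HSD17B7 closes this group as the sterol ketone reductase, and it is also known for converting estrone to estradiol and as a protein associated with the prolactin receptor in the corpus luteum of rodents. It was at 54.9, 58.9, 22.8, 59.1 and 53.0 FPKM in luteal phase ovaries and at 4.36, 3.96, 3.70, 5.10 and 6.14 FPKM in the follicular phase. Luteal phase replicate 3 stood far below the other luteal phase ovaries, yet 3.72 times above the highest follicular phase ovary. The log2 fold change was 3.34 (standard error 0.25, limma adjusted p = 3.43e-06), and it was 3.60 without luteal phase replicate 3.

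The last group shifts and adds ring double bonds. EBP, the sterol isomerase named for its binding of the drug emopamil, was at 31.5, 39.6, 18.7, 35.1 and 35.6 FPKM in the luteal phase. In the follicular phase it was at 8.46, 7.47, 6.09, 7.81 and 6.74 FPKM. The phases did not overlap, and the log2 fold change of EBP was 2.08 (standard error 0.18, limma adjusted p = 9.92e-06). SC5D, the desaturase that adds the ring double bond kept in cholesterol, was at 112, 104, 71.9, 132 and 129 FPKM in the luteal phase. It was at 25.5, 27.2, 20.7, 24.8 and 25.9 FPKM in the follicular phase. SC5D had the smallest relative spread of the 9 enzymes in the follicular phase, and its log2 fold change was 2.11 (standard error 0.15, limma adjusted p = 2.38e-06).

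The order of the levels differed between the phases. In the luteal phase MSMO1 (819 ± 133 FPKM, SD, n = 5) was the most abundant enzyme and did not overlap with any other. It was followed by FDFT1 (119 ± 30.6), SQLE (113 ± 27.2), SC5D (109.8 ± 24.2), NSDHL (105 ± 18.8) and TM7SF2 (103 ± 24.5). Neighbours among these 5 enzymes overlapped in range and cannot be ordered. HSD17B7 (49.7 ± 15.3) lay below all of them, and EBP (32.1 ± 8.03) and LSS (22.8 ± 6.15) came last. In each of the 5 luteal phase ovaries HSD17B7 exceeded EBP and EBP exceeded LSS, although their ranges overlapped. In the follicular phase MSMO1 was again the highest (71.4 ± 12.1), and FDFT1 (30.2 ± 3.53), SC5D (24.8 ± 2.48), SQLE (21.7 ± 5.63) and NSDHL (17.9 ± 2.30) followed with overlapping ranges between neighbours. TM7SF2 and HSD17B7, which both lay above EBP and LSS in the luteal phase by their means, had the lowest means in the follicular phase, 4.67 ± 0.808 and 4.65 ± 0.986, below EBP (7.31 ± 0.924) and LSS (5.71 ± 0.701). The ranges of TM7SF2 and HSD17B7 overlapped in that phase, and so did those of LSS and TM7SF2. Within each of the 5 follicular phase ovaries, FDFT1 exceeded SC5D, SQLE exceeded NSDHL, EBP exceeded LSS and LSS exceeded TM7SF2. SC5D exceeded SQLE in 4 of 5, and TM7SF2 exceeded HSD17B7 in 3 of 5. The highest mean was 35.9 times the lowest in the luteal phase, and 15.4 times in the follicular phase. MSMO1 alone held 55.9% ± 2.34 of the summed FPKM of the 9 enzymes in luteal phase ovaries, against 37.8% ± 1.59 in follicular phase ovaries. Without MSMO1, the other 8 enzymes held 0.145% and 0.0245% of all mRNA FPKM.

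Whether the enzymes rose by the same factor was examined within ovaries, as the log2 ratio of each enzyme to FDFT1, the first step. A ratio within an ovary does not depend on the scaling between ovaries. The phases were compared by a two-sided exact permutation test for each of 8 ratios, without adjustment, where 5 ovaries against 5 allow no p below 0.00794. TM7SF2 gained 2.48 on FDFT1, from -2.68 ± 0.28 in the follicular phase to -0.19 ± 0.25 in the luteal phase (SD, n = 5 each, exact permutation p = 0.00794). MSMO1 gained 1.59 and HSD17B7 gained 1.40, each with the same exact permutation p of 0.00794. NSDHL gained 0.61 at this p as well, so the enzymes of the second group (TM7SF2, MSMO1, NSDHL and HSD17B7) rose more than squalene synthase. FDFT1 had the smallest log2 fold change of the enzymes, so no mean ratio to it could be lower in the luteal phase. SC5D gained 0.18 (exact permutation p = 0.0238). SQLE gained 0.45 (exact permutation p = 0.0397). Without any single ovary other than follicular phase replicate 2 the SQLE difference missed the threshold, with values from 0.35 to 0.49 and exact permutation p from 0.0635 to 0.0794, where 4 ovaries against 5 allow 0.0159. The ratio of LSS to FDFT1 was -2.38 in both phases (SD 0.24 luteal, 0.19 follicular, n = 5 each, exact permutation p = 0.992), and the sign of its difference changed with the setting. The difference for EBP was 0.15 (exact permutation p = 0.159).

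**Figure D2:**
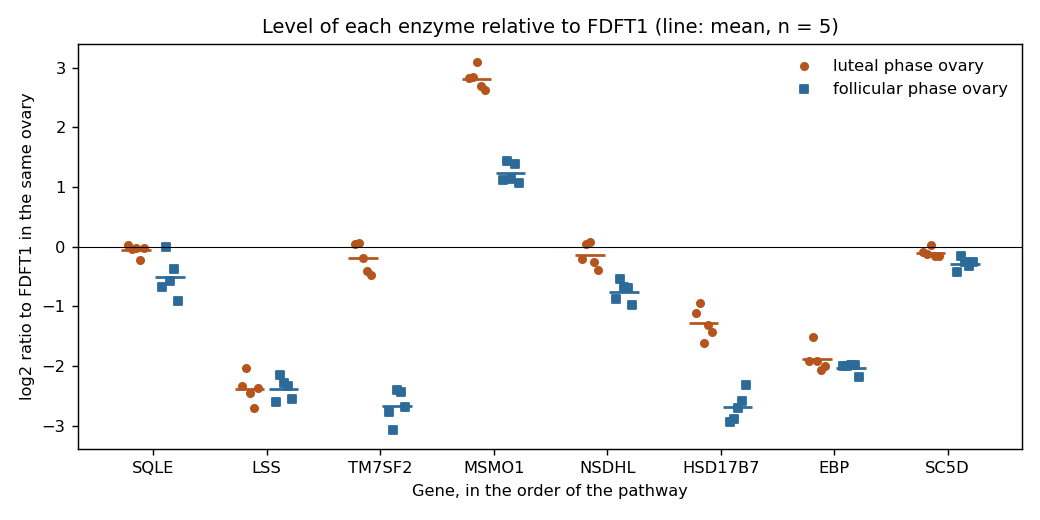
Log2 ratio of each enzyme to FDFT1 in the same ovary for 5 luteal phase ovaries (circles) and 5 follicular phase ovaries (squares), with a line at the mean of each phase. TM7SF2, MSMO1, NSDHL and HSD17B7 separate by phase without overlap, whereas LSS lies at the same ratio of -2.38 in both phases.

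Within the phases, the enzymes varied together. Luteal phase replicate 3 was the lowest luteal phase ovary for 9 of 9 enzymes, at a fraction of the mean of the other luteal phase ovaries that ran from 0.404 (HSD17B7) to 0.685 (MSMO1). Follicular phase replicate 3 was the lowest of its phase for 8 of 9, the exception being TM7SF2, which was lowest in follicular phase replicate 2. The same luteal phase ovary had the lowest summed FPKM of the marker genes for luteal steroidogenic cells, 6435 against a median of 8531. Of these 9 markers 6 were at their lowest there (OXT, STAR, CYP11A1, FDX1, FDXR and SCARB1), PTGFR was second lowest, and LHCGR and PRLR were in the middle of the phase. The same ovary had the highest sums in its phase of stroma (2300.1), smooth muscle (941) and oocyte markers (19.4), and the lowest of granulosa (185) and leukocyte markers (46.5). Follicular phase replicate 3 had the lowest sums in its phase of markers for luteal steroidogenic cells (192), granulosa cells (261) and theca cells (146), the highest of endothelial markers (92.6) and the second highest of stroma (1712) and smooth muscle markers (1384). The part of these markers in the low enzyme levels was not tested. Without luteal phase replicate 3, the log2 fold changes of the 9 enzymes ran from 2.11 to 4.59, and all 9 remained higher in the luteal phase. With the phase means taken out, Pearson's r between enzymes over the 10 ovaries was above 0 in 36 of 36 pairs, with a median of 0.818. The highest r was 0.971 (FDFT1 with SC5D) and the lowest 0.394 (SQLE with TM7SF2). Values of an ovary share 1 library, and the correlation was weaker without luteal phase replicate 3. Over the remaining 9 ovaries 27 of 36 pairs were above 0, and r ran from -0.44 to 0.898 with a median of 0.454.

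**Figure D3:**
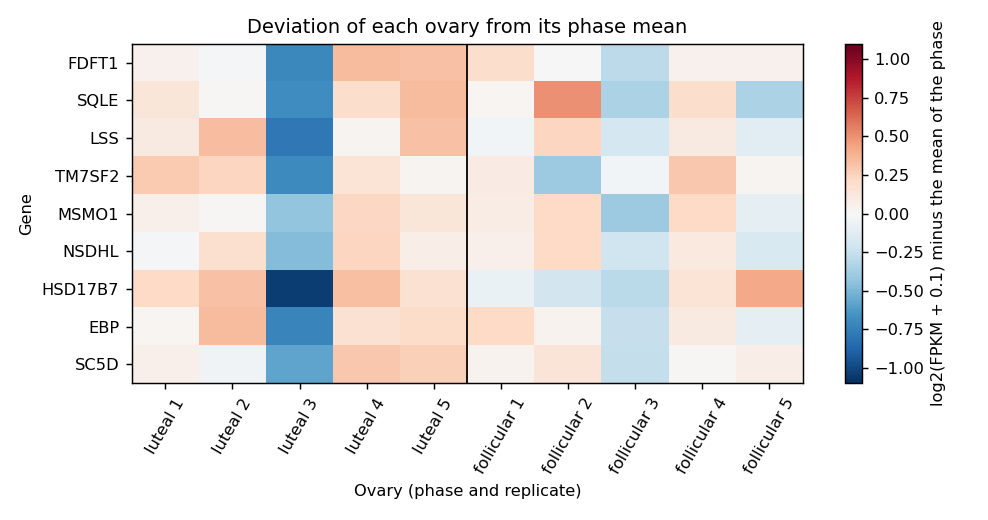
Deviation of each ovary (columns) from the mean of its phase for the 9 enzymes (rows), in log2(FPKM + 0.1) units, with red above and blue below the mean. Luteal phase replicate 3 is below its phase mean in all 9 enzymes, and most strongly in HSD17B7.

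The genes whose phase-centred pattern was most like the mean pattern of the enzymes were ranked by Pearson's r over the 10 ovaries among 12572 other genes with a mean FPKM of at least 1. The 5 leading genes were FADS2 (r = 0.980), FADS1 (0.974), BCLAF1 (0.964), MVD (0.962) and LOC102170668 (0.962). FADS2 and FADS1 are fatty acid desaturases, MVD is a mevalonate pathway enzyme, and BCLAF1 is a nuclear protein linked to transcription and RNA processing. Without luteal phase replicate 3 these values fell to 0.911, 0.871, 0.758, 0.739 and 0.812. Likeness within phases did not imply the same phase difference: FADS2 was higher in the luteal phase by 1.27 on the log2 scale (limma adjusted p = 0.000358), and BCLAF1 was lower (-0.32, limma adjusted p = 0.00847).

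Transcripts of the enzymes were also compared singly. SQLE, TM7SF2, EBP and SC5D are each listed with 1 transcript, FDFT1, LSS and HSD17B7 with 2, NSDHL with 4 and MSMO1 with 9. All 23 transcripts had a higher mean log2 value in the luteal phase, and 21 of them were called higher with limma adjustment over all 32842 transcripts tested, of which 7.47% were called higher. In 19 of the 23 every luteal phase ovary lay above every follicular phase ovary, beside 6.63% of all transcripts tested. These counts include 2 minor NSDHL transcripts, XM_005700494.3 and XM_018044710.1, that passed the filter on low values through the luteal phase ovaries, with 0.1 FPKM reached in only 1 and 2 follicular phase ovaries. Their difference was therefore partly fixed by the filter and is given as a description. Their log2 fold changes of 1.49 and 1.57 were 0.29 and 0.38 with a pseudocount of 1. Of the other 21 transcripts, 19 were called higher and 18 did not overlap. The transcripts that missed the threshold were XM_018051830.1 of FDFT1 (log2 fold change 1.27, limma adjusted p = 0.0726) and XM_018052368.1 of LSS (1.94, limma adjusted p = 0.159). The FDFT1 transcript holds a small part of its gene, 5.94% of the FPKM in luteal phase ovaries and 10.6% in follicular phase ovaries. The follicular mean was raised by replicate 3, at 27.3%, while the others lay between 5.02% and 7.63%. The transcript was called without follicular phase replicate 3 (1.61, limma adjusted p = 0.0176) and without luteal phase replicate 3 (1.49, limma adjusted p = 0.0467). Fragments that fit several transcripts of a gene were divided between them by the authors' processing, and the effect of this on the single transcripts was not tested.

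The transcripts with the widest spread in their share of the gene, in percentage points, belonged to LSS and MSMO1. The share of LSS held by XM_018052368.1 was 3.80% at the lowest and 80.7% at the highest in the follicular phase, and 5.43% and 56.0% in the luteal phase. This spread within each phase was far larger than the difference of its mean shares, 39.0% in the follicular phase and 29.8% in the luteal phase. In MSMO1 the largest transcript, XM_005691143.3, was at 350.4, 53.5, 240.5, 376 and 317 FPKM in the luteal phase. In the follicular phase it was at 25.2, 27.6, 0.371, 23.4 and 20.5 FPKM. It was low in luteal phase replicate 2, where XM_005691141.3 was at its highest (199.7 FPKM), and in follicular phase replicate 3, where XM_005691138.3 was at its highest in that phase (30.0 FPKM). The values of these MSMO1 transcripts depended on single ovaries. Without follicular phase replicate 3, the log2 fold change of XM_005691143.3 moved from 4.34 to 3.20 (limma adjusted p = 0.00467) and that of XM_005691141.3 from 4.51 to 3.22 (limma adjusted p = 0.00615). XM_005691143.3 (log2 fold change 4.34, limma adjusted p = 0.0228) missed the threshold without luteal phase replicate 4 (adjusted p = 0.0555) or 5 (0.0519). XM_005691141.3 (4.51, limma adjusted p = 0.0316) missed it without follicular phase replicate 4 (adjusted p = 0.0609) or luteal phase replicate 2 (0.0687), 4 (0.0650) or 5 (0.0665). It also missed the threshold with a pseudocount of 0.01 (5.19, limma adjusted p = 0.0802).

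Whether the phases use different transcripts of an enzyme was tested for the 19 transcripts of the 5 genes with more than 1. With limma's diffSplice, which compares a transcript with the others of its gene, 0 of 19 passed the adjusted threshold, beside 2.51% of 20284 transcripts tested. In diffSplice 1 of the 19 had an unadjusted p under 0.05, a count with no share of all transcripts beside it. The lowest adjusted p of diffSplice was 0.113. With a pseudocount of 1 in place of 0.1, diffSplice called 5 of them, 3 of NSDHL (the lowest adjusted p, 5.05e-13, for XM_005700492.3) and 2 of HSD17B7. Among the NSDHL calls were XM_005700494.3 and XM_018044710.1, which passed the filter on low values through the luteal phase ovaries. These and XR_001297362.2 of HSD17B7 had follicular means of 0.0461, 0.0853 and 0.246 FPKM, below that pseudocount. With limma on the log2 ratio of a transcript to the other transcripts of its gene, 0 of 19 passed beside 0.69%. An unadjusted p under 0.05 was found for 7, again with no share of all transcripts beside it. The 7 in this ratio test were XM_018061635.1 of MSMO1 and all transcripts of NSDHL and HSD17B7. Transcripts of a gene are compared with each other, so these are not separate results. They include XM_005700494.3 and XM_018044710.1 of NSDHL, which passed the filter through the luteal phase ovaries. The lowest adjusted p of that test was 0.0927 for XM_018061635.1 of MSMO1. This transcript held 13.1% ± 1.42 of MSMO1 in luteal phase ovaries, against 4.67% ± 2.28 in follicular phase ovaries (SD, n = 5 each). Its share was higher in every luteal phase ovary (11.1% to 14.6%) than in any follicular phase ovary (2.01% to 7.15%). NSDHL and HSD17B7 were dominated by 1 transcript each, XM_005700492.3 and XM_005677120.3, with mean shares between 94.8% and 96.3% in both phases.

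**Figure D4:**
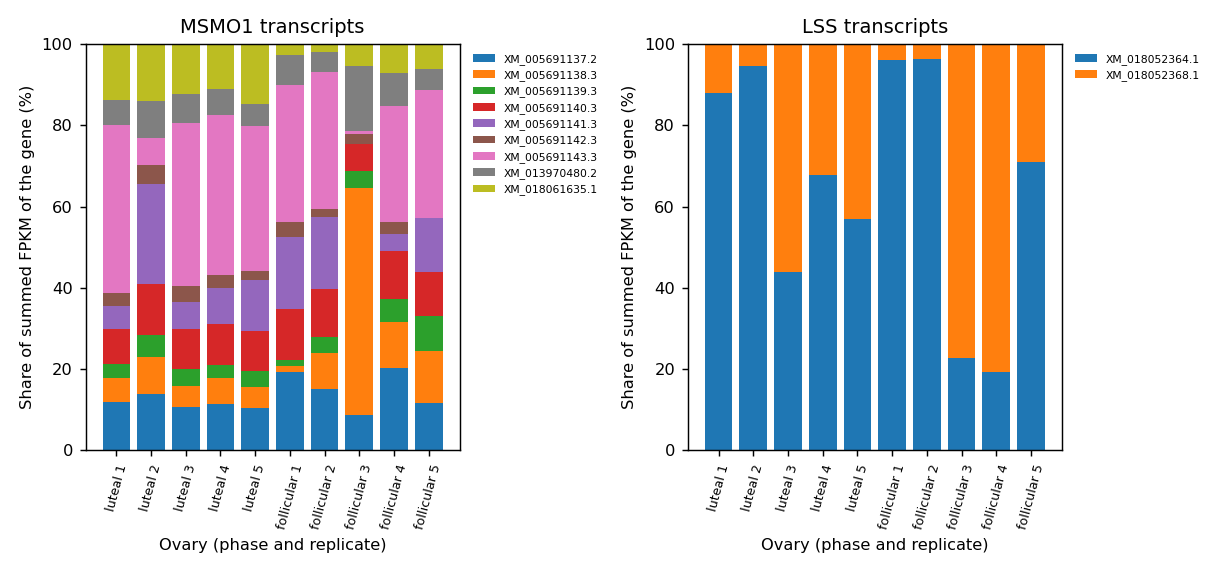
Share of the summed FPKM of MSMO1 (left, 9 transcripts) and LSS (right, 2 transcripts) held by each transcript in each of the 10 ovaries, in percent. XM_018061635.1 of MSMO1 (top segment) is larger in the luteal phase ovaries, and the LSS transcripts change places between ovaries of the same phase.

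Other genes of the late pathway and relatives of the 9 enzymes were then examined. DHCR7, a reductase that removes a ring double bond late in the pathway, was higher in the luteal phase by 3.38 on the log2 scale (standard error 0.19, limma adjusted p = 3.63e-07). LBR, the lamin B receptor of the nuclear envelope, has the same sterol reductase activity as TM7SF2 but was lower in the luteal phase (35.3 ± 5.36 against 48.0 ± 4.5 FPKM, SD, n = 5 each, log2 fold change -0.45, limma adjusted p = 0.00502). In the follicular phase LBR exceeded TM7SF2 in each ovary, and in the luteal phase TM7SF2 exceeded LBR in each ovary. The log2 ratio of TM7SF2 to LBR lay between -3.78 and -3.07 in the follicular phase and between 0.95 and 1.98 in the luteal phase. EBPL, a relative of EBP, was at 14.5 ± 5.65 FPKM in luteal phase ovaries and 20.5 ± 4.02 in follicular phase ovaries (log2 fold change -0.55, limma adjusted p = 0.0816). It passed the threshold without luteal phase replicate 1 (-0.74, limma adjusted p = 0.0130) or follicular phase replicate 1 (-0.68, limma adjusted p = 0.0404). The log2 ratio of EBP to EBPL was negative in every follicular phase ovary (-1.96 to -0.70) and positive in every luteal phase ovary (0.22 to 1.95). These 2 ratios were chosen after their values were seen. Whether EBPL carries out the reaction of EBP was not tested here.

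The mevalonate steps upstream of squalene moved in the same direction. Of 8 genes tested, 7 were higher in the luteal phase, beside 15.9% of all genes. HMGCS1, which makes the precursor of mevalonate, rose by 3.26 on the log2 scale. FDPS, which makes farnesyl diphosphate, the substrate of FDFT1, rose by 2.47. PMVK (2.37), ACAT2 (2.33), MVD (2.30) and MVK (1.45) rose as well, with limma adjusted p of 0.000735 or less for each gene named here. GGPS1 draws farnesyl diphosphate away from sterols to geranylgeranyl diphosphate, and it was at 13.9 ± 0.726 FPKM in luteal phase ovaries and 14.5 ± 0.983 in follicular phase ovaries. Its log2 fold change was -0.06 (limma adjusted p = 0.546), and the sign turned under a shift to a common median and on a TPM scale. IDI1 was not analysed here.

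**Figure D5:**
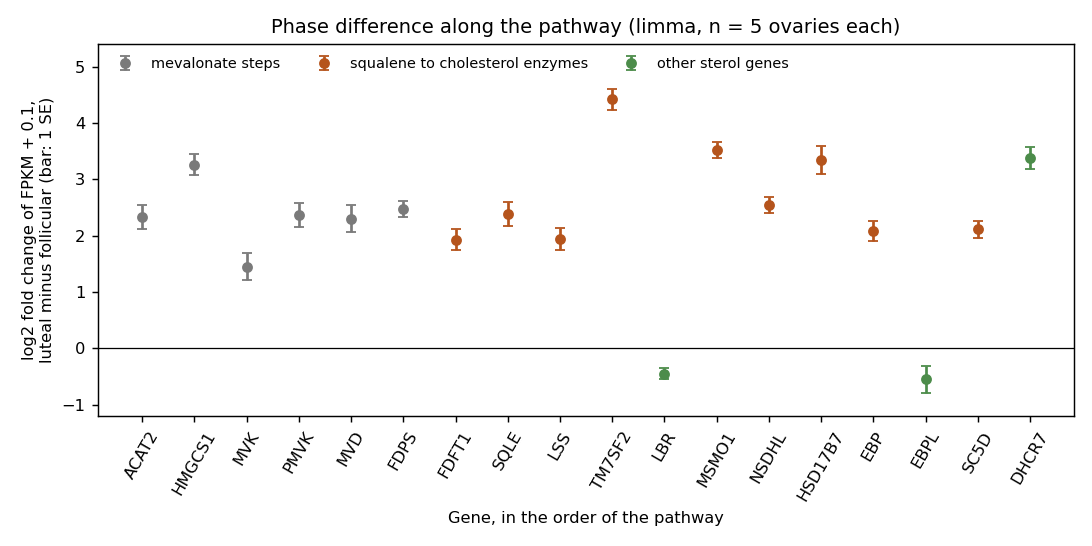
Log2 fold change, luteal minus follicular, of FPKM + 0.1 for mevalonate steps (grey), the 9 squalene to cholesterol enzymes (orange) and other sterol genes (green), in pathway order, with bars of 1 standard error (limma, n = 5 ovaries per phase). The 6 mevalonate genes drawn lie above 0 (GGPS1 is not drawn), TM7SF2 is highest at 4.42, and LBR and EBPL lie below 0.

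Of 3 proteins tested that serve the sterol enzymes, 2 were lower in the luteal phase, beside 27.8% of all genes. SEC14L2, a lipid-binding protein that stimulates squalene epoxidation, was lower in the luteal phase (log2 fold change -1.35, limma adjusted p = 0.000323). CYB5A, cytochrome b5, which hands electrons to sterol desaturases and oxidases, was also lower (-0.59, limma adjusted p = 0.00977). PGRMC1, a heme protein that binds sterol-forming cytochromes, had a log2 fold change of -0.03 (limma adjusted p = 0.741), whose sign turned on a TPM scale and with a shift to a common median. Of 11 genes of sterol sensing and cholesterol uptake, 5 were higher and 1 was lower in the luteal phase, beside 15.9% and 27.8% of all genes tested. One of the 5, SCAP, the escort protein of SREBP (0.33, limma adjusted p = 0.0394), was called in 12 of 19 alternatives. It missed the threshold with eBayes without trend and without follicular phase replicate 2, 3 or 4 or luteal phase replicate 1, 2 or 5 (limma adjusted p 0.0522 to 0.0926, log2 fold change 0.28 to 0.33). Among the larger changes were those of STARD4, a cytosolic cholesterol carrier (2.11, limma adjusted p = 2.34e-06), and INSIG1, which holds back SREBP processing (1.88, limma adjusted p = 0.000352). The median log2 fold change of this list was 0.24, that of the mevalonate steps 2.35 and that of the 9 enzymes 2.38.

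Cell type markers were compared to describe the tissue. The counts below stand beside 15.9% of all genes called higher and 27.8% called lower in the luteal phase. Of the luteal steroidogenic markers 9 of 9 were higher in the luteal phase, led by OXT (oxytocin, log2 fold change 10.26), STAR (the carrier of cholesterol into mitochondria, 7.35) and PRLR (the prolactin receptor, 6.02). OXT and PRLR were low in the follicular phase (1.39 and 0.471 FPKM on average), and their values depend on the pseudocount, with 9.37 and 4.54 at a pseudocount of 1. With that pseudocount PRLR lay below CYP11A1, whose log2 fold change was 4.72 or more in all alternatives. The summed FPKM of the 9 luteal steroidogenic markers was 6435 to 8648 in luteal phase ovaries, against 192 to 264 in follicular phase ovaries. None of these markers was at 0 in all ovaries. All 9 enzymes rose less than STAR, with log2 ratios to STAR that were lower in the luteal phase by values from -2.93 (TM7SF2) to -5.41 (FDFT1 and LSS), a comparison chosen after the values were seen. Endothelial markers were higher in 5 of 5 (summed FPKM 184 to 236 against 79.7 to 92.6). Theca markers were lower in 3 of 4 (22.1 to 74.1 against 146 to 211), oocyte markers in 5 of 7 (8.34 to 19.4 against 16.2 to 46.0) and smooth muscle markers in 4 of 4 (524 to 941 against 1140.2 to 1439). The smooth muscle marker DES (limma adjusted p = 0.0321) was called in 12 of 19 alternatives. It missed the threshold on a TPM scale, with a shift to a common median, and without follicular phase replicate 2, 3 or 4 or luteal phase replicate 4 or 5 (limma adjusted p 0.0523 to 0.0753, log2 fold change -0.65 to -0.50). The oocyte marker NOBOX missed it without luteal phase replicate 4 (limma adjusted p = 0.0553). Of 8 granulosa markers 1 was higher and 3 were lower (185 to 754 against 261 to 1207). The granulosa markers INHA, INHBA and CYP19A1 were also called lower with the replicate number as a block (limma adjusted p = 0.00794, 0.0141 and 0.00603). Of 5 stroma markers 1 was higher and 1 lower (1223 to 2300.1 against 1227 to 1768), and of 5 leukocyte markers 1 was higher (46.5 to 55.3 against 27.6 to 61.2). The liver markers ALB and APOB were near 0 in all ovaries, with sums of at most 0.112 FPKM. The luteal steroidogenic and endothelial markers were higher in the same phase as the 9 enzymes, and the part of the cell type markers in the phase difference of the enzymes was not tested.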

How the data were processed

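RNA of 10 whole goat ovaries was sequenced as strand-specific paired-end libraries. The authors used HISAT2 for alignment, StringTie for assembly and Cuffdiff for the deposited FPKM of each transcript in each ovary, without pooling. The genome build is not given in the sources used here, so no coordinates are printed. FPKM of protein-coding transcripts were summed by gene symbol. A gene or transcript was tested when 5 or more ovaries reached an FPKM of 0.1, with limma 3.58.1 (lmFit, eBayes with trend) in R 4.3.3, two-sided, on log2(FPKM + 0.1). Folds on this scale understate the change of low genes. Transcript use was tested with diffSplice, and with a ratio test added after the data were seen because diffSplice assumes 1 variance per gene. Ratios within ovaries were compared by exact permutation in Python 3.11.15. The scripts were tested on simulated data.

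The 9 enzymes, the lists and the tests were chosen with earlier results of these data known. Named were all 9 enzymes and their transcripts, all other sterol and mevalonate genes, up to 3 largest changes of each further list, and the 5 genes most alike. Some of these genes are not reported here, although the counts and medians of their lists include them. CYP11A1 and CYP17A1 were matched through RefSeq synonyms, and listed genes without a match were not analysed here. In the tables of mRNA and annotated lncRNA all 437660 and 11730 values equalled those of the main table. Other settings tried were a pseudocount of 1 or 0.01, a minimum FPKM of 0.5 or none, a shift to a common median, quantile normalization, a TPM scale, eBayes without trend, a replicate block and leaving out each ovary.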

Additional observations from a re-analysis of the deposited data

Results flagged for a closer look

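In 72 groups of 5 ovaries (the enzymes, their transcripts and the ratios to FDFT1 in each phase), 11 held an ovary whose distance to its nearest neighbour exceeded Dixon's critical share of the range of the group, where chance gives about 5%. Luteal phase replicate 3 was the low ovary for HSD17B7 (22.8 FPKM, others 53.0 to 59.1) and for its main transcript XM_005677120.3 (22.1 FPKM, others 50.2 to 57.4).

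Follicular phase replicate 3 stood apart in the division of transcripts. Of FDFT1, XM_018051830.1 was high there (6.69 FPKM, others 1.51 to 2.48) and XM_005683526.3 was low (17.8 FPKM, others 28.6 to 31.7). Of MSMO1, XM_005691143.3 was low (0.371 FPKM, others 20.5 to 27.6) and XM_005691138.3 was high (30.0 FPKM, others 1.23 to 9.28). In each of these genes 1 transcript was high where another was low, and the cause was not tested.

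Follicular phase replicate 5 was high for the minor transcripts XM_005700494.3 of NSDHL (0.204 FPKM, others at most 0.0115) and XR_001297362.2 of HSD17B7 (0.503 FPKM, others 0.151 to 0.210). It was low for the log2 ratio of EBP to FDFT1 (-2.18, others -2.0 to -1.98). Luteal phase replicate 2 was high for the same ratio (-1.52, others -2.06 to -1.91). Luteal phase replicate 4 was low for the log2 ratio of SQLE to FDFT1 (-0.22, others -0.04 to 0.02).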

How the results depend on the processing

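The log2 fold changes of the 9 enzymes kept their direction and their adjusted p under 0.05 in 171 of 171 values over 19 alternatives, with a highest adjusted p of 0.000162 (LSS, replicate block). Leaving out 1 ovary gave 9 called enzymes in each of the 10 fits, 19 to 22 called transcripts (21 with all ovaries), 17 to 19 called genes of the pathway lists (18 with all ovaries), 0 transcripts with a change in use and 5 to 6 ratios to FDFT1. With a pseudocount of 1, diffSplice called 5 transcripts with a change in use, 3 of NSDHL and 2 of HSD17B7, and 0 with the pseudocount of 0.1. Among the NSDHL calls were XM_005700494.3 and XM_018044710.1, which passed the filter on low values through the luteal phase ovaries. The cause of the difference between the pseudocounts was not tested. The sign turned for GGPS1 (0.04 on a TPM scale, 0.03 with a shift to a common median), for PGRMC1 (0.07 and 0.05) and for the LSS ratio to FDFT1: -0.12 with a pseudocount of 1, -0.01 and -0.09 without luteal phase replicates 1 and 2, and -0.05 and -0.04 without follicular phase replicates 1 and 5 (range over left-out ovaries -0.09 to 0.08). None of these passed a threshold.

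The labels do not say whether ovaries with equal replicate numbers share anything beyond the number. The correlation of their deviations from the phase means was 0.0258 to 0.199, and 5 of 10 ovaries correlated best with their own number. With the replicate number as a block, 9 enzymes, 22 transcripts, 19 pathway genes and 0 changes in use were called. The block left 0 ratios to FDFT1, since sign flips of 5 pairs allow no exact permutation p below 0.0625. XM_018052368.1 of LSS was called with the block (adjusted p = 0.0397), and so were the listed genes INHA, INHBA, CYP19A1, SREBF1, FIGLA (all lower) and COL1A1 (higher), with adjusted p from 0.00603 to 0.0452. Other settings also added calls among the listed genes: INHA without follicular phase replicate 3 (adjusted p = 0.0451) or luteal phase replicate 1 (0.0373), FIGLA in 4 settings (0.0344 to 0.0491), ZP4 without follicular phase replicate 4 (0.0401) or luteal phase replicate 3 (0.0115), SREBF1 without follicular phase replicate 4 (0.0437) or luteal phase replicate 1 (0.0301), NR1H3 on a TPM scale (0.0240) or without follicular phase replicate 2 (0.00800), and PTPRC without follicular phase replicate 5 (0.0372). Depth is unknown, so counting error could not be separated from the spread between ovaries, and 5 ovaries per phase limit what the exact tests can show.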
